A study of Mus musculus with 32 samples.

Results

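The 36 genes described here carry out glycolysis and glycogen metabolism: the isoforms of the glycolytic enzymes, the enzymes that set fructose 2,6-bisphosphate, lactate and glycerol 3-phosphate dehydrogenases, and the enzymes that build, cut and bind glycogen. They were found by matching the 55401 Ensembl gene identifiers of the count files to GRCm38 symbols, and 36 of 36 symbols were present. RNA was measured by 3′ sequencing in 32 libraries from C57BL/6 mice at 200 days of age. COX10 KO mice carried floxed Cox10 alleles and a Cre gene placed in the Myl1 locus, which is active in fast muscle fibres, and lacked an assembly factor of cytochrome c oxidase there. The study calls its control mice (CTL) littermates, and their label gives no allele. Calf muscle (gastrocnemius with soleus) and liver each gave 6 COX10 KO and 6 CTL libraries, labelled as 3 females and 3 males per genotype, and hypothalamus gave 4 COX10 KO and 4 CTL libraries, labelled as males, although the methods of the study say males alone were used unless noted. Each library is a separate sample by its label, and the labels do not say which tissues came from one mouse.

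Glycolysis splits glucose 6-phosphate into pyruvate in the cytosol and yields ATP without oxygen, and lactate dehydrogenase then returns NAD+ by turning pyruvate into lactate. Glycogen is the stored form of glucose: glycogenin starts the chain, glycogen synthase extends it with UDP-glucose, the branching enzyme branches it, and glycogen phosphorylase, switched on by phosphorylase kinase, releases glucose 1-phosphate from it. Many of these steps have separate muscle, liver and brain isoforms. Fast muscle fibres hold the highest levels of most glycolytic enzymes and use glycogen for contraction, liver stores glycogen to hold blood glucose, and brain keeps a small store, largely in astrocytes.

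Total counts per library ran from 1734571 to 11404800 in COX10 KO muscle and from 434494 to 8936522 in CTL muscle, from 674311 to 3197080 in COX10 KO liver and from 1955599 to 16044634 in CTL liver, and from 3526613 to 5684034 in COX10 KO hypothalamus and from 4070847 to 22321322 in CTL hypothalamus. Levels are given as CPM, the count of a gene scaled to a common library size after correction by a factor per library. A 3′ read is taken once per transcript end, so CPM does not grow with transcript length. Levels set side by side between genes are still limited by the counting. Reads of genes with near-identical copies, such as Gapdh, Eno1 and Ldha, may have been dropped. Sex-linked transcripts went against the labelled sex in 2 of 32 libraries, both CTL liver. CTL muscle 2, the shallowest library, carried adipocyte and hepatocyte transcripts (summed levels of 2712 and 2565 CPM), and COX10 KO liver 4 and 6 carried fast-fibre transcripts (131 and 613 CPM, against 1.70 to 14.7 CPM in the other COX10 KO livers and 1.5 to 31.0 CPM in CTL livers). Cox10 stood at 95.1 to 140.1 CPM in COX10 KO muscle, against 48.0 to 147 CPM in CTL muscle, and was called in no tissue by edgeR, but its 3′ reads do not show the floxed deletion, so they do not check the genotype labels.

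In COX10 KO muscle 4 genes of glycogen building and binding rose, Stbd1, Gbe1, Gyg and Ugp2, and 4 genes fell, the phosphorylase kinase subunit Phkg1, the muscle phosphorylase Pygm and the bifunctional enzymes Pfkfb3 and Pfkfb1. Of the 36 genes 33 had enough counts to be tested in muscle, and Pgam1, Pklr and Gys2 did not. Calls rest on the quasi-likelihood F test of edgeR, with p-values adjusted by Benjamini-Hochberg over all genes tested and a threshold of 0.05. The 4 higher of 33 genes stand beside 6.9% of all 11636 genes tested, and the 4 lower beside 7.43%, and the difference of these shares was not tested. The unadjusted p was under 0.05 for 20 of the 33 genes. The share of all genes under this threshold is not given here, so that count is not read as particular to the set. The median log2 fold change was -0.48, against -0.03 over all genes tested. Every COX10 KO library lay above every CTL library for 4 of the 33 genes (Stbd1, Gbe1, Gyg and Gys1), against 4.08% of all genes, and below every CTL library for 1 (Phkg1), against 2.31%. In whole muscle, fewer cells of a type and less RNA per cell cannot be told apart.

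Stbd1, which binds glycogen and tethers it to membranes, was the most changed of the 36 genes. Its level in COX10 KO muscle was 70.8 CPM at the lowest, 96.6 at the median and 119.7 at the highest, against 8.73, 15.0 and 31.4 CPM in CTL muscle. The groups did not overlap, and even CTL muscle 1, the highest CTL library, was below every COX10 KO library. The fitted change was 5.81-fold (log2 2.54, SE 0.22, adjusted p = 2.914e-06 by edgeR, n = 6 against 6). Gbe1, the glycogen branching enzyme, was at 274, 345 and 544 CPM (lowest, median, highest) in COX10 KO muscle, against 80.2, 116 and 157 CPM in CTL muscle, again without overlap. Its fitted change was 3.15-fold (log2 1.65, SE 0.21, edgeR adjusted p = 0.000168).

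Gyg and Ugp2, which act before the branching step, also rose. Gyg, glycogenin, which primes a new glycogen chain, was at 357, 455 and 585 CPM in COX10 KO muscle, against 84.9, 253 and 337 CPM in CTL muscle. All 6 COX10 KO libraries were above the highest CTL library, CTL muscle 4, and the fitted log2 change was 0.96 (SE 0.25, edgeR adjusted p = 0.0196). Without CTL muscle 6 the adjusted p was 0.0506. Ugp2, which makes the UDP-glucose that glycogen synthase uses, was at 387, 553 and 664 CPM in COX10 KO muscle, against 155, 342 and 445 CPM in CTL muscle. There 5 of 6 COX10 KO libraries were above every CTL library, and COX10 KO muscle 4 was not. The log2 change of Ugp2 was 0.76 (SE 0.23, edgeR adjusted p = 0.0364), and the call was lost without any 1 of CTL muscle 1, 5 and 6 and COX10 KO muscle 2, 3, 5 and 6 (adjusted p 0.0549 to 0.0778). Gys1, the muscle glycogen synthase, was at 448, 485 and 563 CPM in COX10 KO muscle, against 192, 399.8 and 447 CPM in CTL muscle. Its groups did not overlap, but the lowest COX10 KO and the highest CTL library were close, and the test did not call it (log2 0.48, SE 0.19, edgeR adjusted p = 0.0978). Of the 5 glycogen synthesis genes 4 were tested and 3 were called, all 3 higher, beside 6.9% of all genes tested. All 4 had a fitted change above 0, with a median of 0.86 on the log2 scale. The share of all genes with such a sign is not given here. Gys2, the liver synthase, had 9 counts over the COX10 KO muscle libraries and 15 over the CTL muscle libraries.

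**Figure D1:**
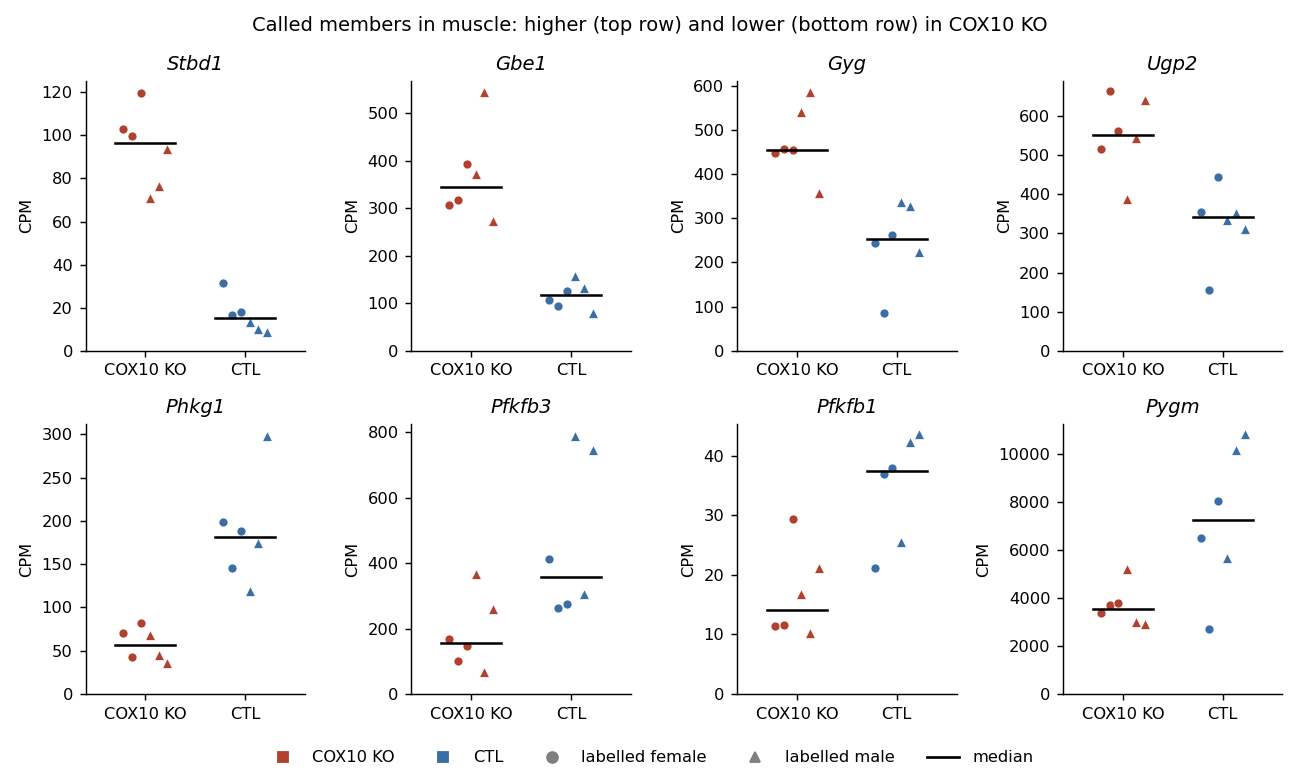
Levels of the 8 genes called in muscle, in CPM on linear axes that start at 0, 1 point per library (6 COX10 KO left, 6 CTL right, circles for labelled females and triangles for labelled males), with the group median as a bar. For Stbd1, Gbe1 and Gyg every COX10 KO point lies above every CTL point, for Phkg1 every one lies below, and for Pygm the CTL points spread from 2712 to 10826 CPM around the COX10 KO points at 2918 to 5216 CPM.

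Of the glycogen breakdown genes, Phkg1 and Pygm fell. Phkg1, the catalytic subunit of phosphorylase kinase in muscle, was at 36.1, 56.9 and 82.4 CPM in COX10 KO muscle, against 119, 181 and 298 CPM in CTL muscle, and all 6 COX10 KO libraries were below the lowest CTL library. The fitted log2 change was -1.71 (SE 0.26, edgeR adjusted p = 0.000615), which is a level of 0.305 times that of CTL. Phkg2, the catalytic subunit of the liver form, was at 2.11, 3.02 and 5.11 CPM in COX10 KO muscle, against 1.56, 3.18 and 6.55 CPM in CTL muscle, with a log2 change of 0.15 (edgeR adjusted p = 0.864). As a share of the counts of both catalytic subunits, Phkg2 thus took 4.09% to 10.1% of the counts in COX10 KO muscle, against 0.786% to 2.47% in CTL muscle. Phka1, a regulatory subunit of the muscle enzyme, was at 540.4, 620.2 and 939 CPM in COX10 KO muscle, against 644, 840.2 and 1466 CPM in CTL muscle, and was not called (log2 -0.53, edgeR adjusted p = 0.147).

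Pygm, the muscle glycogen phosphorylase, stood at 2918, 3537 and 5216 CPM in COX10 KO muscle, against 2712, 7263 and 10826 CPM in CTL muscle. The lowest of all 12 libraries was CTL muscle 2, and the other 5 CTL libraries were above every COX10 KO library, the lowest of them being CTL muscle 4 at 5659.7 CPM. The log2 change was -0.96 (SE 0.28, edgeR adjusted p = 0.0310). This call did not hold with the replicate number as a block (log2 -0.88, adjusted p = 0.107), and on leaving out 1 library at a time it was kept only without CTL muscle 2, CTL muscle 4 or COX10 KO muscle 4, with adjusted p up to 0.108 otherwise. Pygl and Pygb, the liver and brain phosphorylases, were low in muscle, between 1.75 and 6.33 CPM and between 5.86 and 10.8 CPM in COX10 KO muscle, against 1.09 to 31.4 and 3.82 to 27.7 CPM in CTL muscle, and neither was called. Of the 6 glycogen breakdown genes, all tested, 2 were lower, beside 7.43% of all genes tested, and 0 were higher, beside 6.9%. A fitted change below 0 was found for 5 of the 6, and the share of all genes with such a sign is not given here.

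Pfkfb3 and Pfkfb1, which set fructose 2,6-bisphosphate, the allosteric activator of phosphofructokinase, were lower in COX10 KO muscle, and Pfkfb4, a further isoform outside the 36 genes, was not called. Pfkfb4 was at 39.7, 56.8 and 96.5 CPM in COX10 KO muscle, against 29.5, 42.7 and 55.1 CPM in CTL muscle (log2 0.55, SE 0.23, edgeR adjusted p = 0.122). Pfkfb3, an isoform with high kinase activity, was at 68.5, 157 and 367 CPM in COX10 KO muscle, against 262, 359 and 789 CPM in CTL muscle. Only COX10 KO muscle 4, at 367 CPM, reached the range of the CTL libraries, and the log2 change was -1.30 (SE 0.34, edgeR adjusted p = 0.0189, and 0.0591 without COX10 KO muscle 2). Pfkfb1, the liver and muscle isoform, was at 10.2, 14.1 and 29.4 CPM in COX10 KO muscle, against 21.1, 37.4 and 43.6 CPM in CTL muscle. There 4 of 6 COX10 KO libraries were below every CTL library (log2 -1.0, SE 0.29, edgeR adjusted p = 0.0287), and the call was lost without any 1 of CTL muscle 3, 5 and 6 and COX10 KO muscle 1, 2, 4 and 5 (adjusted p 0.0506 to 0.0842). Fbp2, the muscle fructose bisphosphatase of the reverse step, was at 34.3, 92.5 and 125 CPM in COX10 KO muscle, against 29.2, 38.8 and 138 CPM in CTL muscle, and was not called (log2 0.80, edgeR adjusted p = 0.143). Its highest library of all was CTL muscle 3, and the groups overlapped.

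No enzyme of the glycolytic trunk was called in muscle by edgeR. The 10 tested genes from aldolase to pyruvate kinase all had a fitted log2 change below 0, with a median of -0.62, and 6 of the 10 had an unadjusted p under 0.05. The shares of all genes with such a sign or such a p are not given here. Aldoa, the muscle aldolase, with the highest median of the 36 genes in muscle, was at 3994, 6558 and 8283 CPM in COX10 KO muscle, against 4305, 9516 and 12855 CPM in CTL muscle (log2 -0.52, edgeR adjusted p = 0.219). Pgam2, the muscle phosphoglycerate mutase, was at 496, 889 and 1495 CPM in COX10 KO muscle, against 788, 1683 and 2382 CPM in CTL muscle (log2 -0.81, edgeR adjusted p = 0.0827). For both genes 1 of 6 COX10 KO libraries was below every CTL library, and the rest overlapped. Pkm, the muscle and brain pyruvate kinase, was at 619, 966 and 1409 CPM in COX10 KO muscle, against 739.9, 1495 and 1888 CPM in CTL muscle (log2 -0.53, edgeR adjusted p = 0.158).

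Some enzymes of the trunk lay close to CTL. Eno3, the muscle enolase, was at 2625, 3642 and 5134 CPM in COX10 KO muscle, against 2502, 4199 and 6159.8 CPM in CTL muscle (log2 -0.24, SE 0.25). Pfkm, the muscle phosphofructokinase, was at 767, 876 and 938 CPM in COX10 KO muscle, against 599.7, 805 and 1222 CPM in CTL muscle (log2 0.04, SE 0.18). Its COX10 KO libraries all lay within the range of the CTL libraries. Gpi1, glucose phosphate isomerase, was likewise within the CTL range in every COX10 KO library (log2 0.16, SE 0.25). Hk2, the insulin-regulated hexokinase of muscle, was at 69.5, 136 and 191 CPM in COX10 KO muscle, against 109, 225 and 527 CPM in CTL muscle (log2 -1.06, SE 0.38, edgeR adjusted p = 0.0726). The minor isoforms Hk1, Pfkl, Pfkp, Aldoc, Eno1 and Eno2 had medians of 1.39 to 13.6 CPM in COX10 KO muscle, against 3.19 to 14.4 CPM in CTL muscle, and none was called by edgeR. DESeq2 called Hk2, Aldoc and Gpd1 lower and Ldhb and Gys1 higher as well, which edgeR did not.

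Neither lactate dehydrogenase subunit was called in muscle by edgeR. Ldha, the subunit of fast muscle, was at 858, 1167 and 1276 CPM in COX10 KO muscle, against 1107, 1389.8 and 1876 CPM in CTL muscle (log2 -0.35, edgeR adjusted p = 0.224). Ldhb, the subunit of heart and slow fibres, was at 212, 270.4 and 350.2 CPM in COX10 KO muscle, against 49.8, 101 and 364 CPM in CTL muscle (log2 0.95, SE 0.36, edgeR adjusted p = 0.0926). The 6 COX10 KO libraries were close together, whereas CTL muscle 4 and 5, at 307 and 364 CPM, stood far above the other 4 CTL libraries. Those same 2 CTL libraries had summed slow-fibre transcripts of 8294 and 17814 CPM, against 764 to 1637 CPM in the other CTL libraries, and the 6 COX10 KO libraries had 1302 to 5738 CPM. The part of slow fibres in the level of Ldhb was not tested. Ldhb made up 15.2% to 29.0% of the lactate dehydrogenase counts in COX10 KO muscle (median 18.5%), against 3.14% to 23.3% in CTL muscle (median 6.82%). Gpd1, the cytosolic glycerol 3-phosphate dehydrogenase, which links glycolysis to lipid synthesis, was at 119, 223 and 406 CPM in COX10 KO muscle, against 340.3, 392 and 522 CPM in CTL muscle. There 5 of 6 COX10 KO libraries were below every CTL library, without a call (log2 -0.74, SE 0.25, edgeR adjusted p = 0.0614).

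Cell type markers moved with genotype in the same muscle libraries. Of 12 fast-fibre markers 8 were lower and 0 higher in COX10 KO muscle, with a summed level of 55442 to 97954 CPM, against 68756 to 218220 CPM in CTL muscle. Of 8 markers of regenerating or denervated fibres 7 were higher, with a summed level of 388 to 491 CPM in COX10 KO muscle, against 60.9 to 80.9 CPM in CTL muscle. Of 9 tested macrophage markers, from a list of 10, 5 were higher, with a summed level of 238 to 582 CPM in COX10 KO muscle, against 113 to 380 CPM in CTL muscle. Of 9 slow-fibre markers 0 were called by edgeR, and 0 had an unadjusted p under 0.05. No marker of these lists was at 0 in either muscle group. The 36 genes together took 16640 to 28857 CPM in COX10 KO muscle, against 15963 to 42804 CPM in CTL muscle, where the lowest value was that of CTL muscle 2. The part of fibre type, regeneration and macrophages in the changes of the 36 genes was not tested.

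Leaving out CTL muscle 2 raised the number of genes called lower to 7 of the 36, and leaving out CTL muscle 6 reduced the number called higher to 2. The counts over all genes in these fits are not given here, so the shifts are not read as particular to the 36 genes. With total counts in place of the scaling factors, 1220 genes were called higher and 473 lower in COX10 KO muscle, against 803 and 865 with the factors, and 6 and 3 of the 36 genes. The median over all genes was then 0.17 on the log2 scale, against -0.03 with the factors, so fitted changes are relative to the scaling used. Of the 8 genes called with the factors, all but Pfkfb1 were called with total counts too.

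Of 39 other genes of glycolysis and glycogen metabolism 26 were tested in muscle and 2 of those reported here were lower. This stands beside 7.43% of all 11636 genes tested that were called lower, so the count is not read as particular to these genes. Pgm1 and Pgm2l1, of the phosphoglucomutase family, which interconverts glucose 1-phosphate and glucose 6-phosphate, were lower. Pgm1 was at 337, 534 and 1042 CPM in COX10 KO muscle, against 552, 1260.1 and 1749.7 CPM in CTL muscle (log2 -0.99, edgeR adjusted p = 0.0305). Pgm2l1, a glucose 1,6-bisphosphate synthase, was at 10.1, 11.9 and 13.1 CPM in COX10 KO muscle, against 12.9, 33.1 and 36.6 CPM in CTL muscle (log2 -1.31, edgeR adjusted p = 0.00176). For Pgm2l1 the COX10 KO range touched only the lowest CTL library. None of the 4 tested subunits that target protein phosphatase 1 to glycogen was called.

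Upstream sequence is shown for the 2 genes that rose most and the 2 that fell most in muscle among those called with exactly 1 promoter window in RefSeq (23 of the 36 genes have exactly 1, and 34 have at least 1); they were chosen after their values were seen. Each run is the 250 bases before the RefSeq start on GRCm38.p6, 5′ to 3′ on the strand of the gene, in lower case with the motifs found in capitals. For Phkg1, Stbd1 and Pygm the Ensembl gene model begins upstream of this start, so the whole window of Phkg1 and the last bases of the other windows named lie within it.
Stbd1, chr5:92602801-92603050, plus strand: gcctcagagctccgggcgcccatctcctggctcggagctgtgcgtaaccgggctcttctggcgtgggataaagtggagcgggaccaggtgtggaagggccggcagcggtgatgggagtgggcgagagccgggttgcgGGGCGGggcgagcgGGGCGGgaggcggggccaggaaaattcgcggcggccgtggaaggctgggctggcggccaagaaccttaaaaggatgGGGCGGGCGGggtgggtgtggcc
Gbe1, chr16:70313699-70313948, plus strand: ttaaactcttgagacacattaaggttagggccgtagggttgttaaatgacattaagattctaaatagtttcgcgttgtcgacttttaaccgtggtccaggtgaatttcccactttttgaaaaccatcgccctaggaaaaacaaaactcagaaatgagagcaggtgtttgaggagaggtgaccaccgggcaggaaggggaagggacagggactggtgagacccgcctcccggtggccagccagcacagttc
Phkg1, chr5:129879089-129879338, minus strand: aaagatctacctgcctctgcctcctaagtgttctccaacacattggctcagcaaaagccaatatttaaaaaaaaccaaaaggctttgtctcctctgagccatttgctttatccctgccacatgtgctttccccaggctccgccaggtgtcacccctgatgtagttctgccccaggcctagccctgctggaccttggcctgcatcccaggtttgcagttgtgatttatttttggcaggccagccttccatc
Pygm, chr19:6384158-6384407, plus strand: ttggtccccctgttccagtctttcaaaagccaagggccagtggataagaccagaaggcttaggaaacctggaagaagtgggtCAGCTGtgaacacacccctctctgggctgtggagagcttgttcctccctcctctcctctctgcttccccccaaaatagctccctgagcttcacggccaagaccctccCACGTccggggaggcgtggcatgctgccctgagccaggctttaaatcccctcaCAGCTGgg
The motifs searched on both strands were the hypoxia response core ACGTG, the ATF4 element TGATGNAA, the E-box CAGCTG, the GC box GGGCGG, the TATA box TATAAA and the MEF2 site. The Stbd1 window held the GC box 4 times, at -113, -99, -23 and -19 from the start, of which the last pair overlap, and had a GC content of 71.2% with 24 CpG. The Pygm window held the E-box at -168 and -8 and the hypoxia response core at -61, on the opposite strand, with a GC content of 58.4% and 4 CpG. In the Gbe1 window (48.8% GC, 9 CpG) and the Phkg1 window (50.8% GC, 1 CpG) none of these letters were found. The median over all 32851 windows was 52.4% GC and 6 CpG, so the Stbd1 window is rich in both. Of all windows 32.7% held the GC box, 16.6% the hypoxia response core, 13.0% the E-box, 12.4% the TATA box, 3.45% the ATF4 element and 2.92% the MEF2 site. Of the 51 windows of the 36 genes, 23 held the GC box, 16 the hypoxia response core, 9 the E-box, 3 the TATA box, 0 the ATF4 element and 2 the MEF2 site.

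In CTL mice the isoforms separated the 3 tissues. Of the 36 genes 24 were higher and 10 lower in CTL muscle than in CTL liver by edgeR, beside 28.2% and 26.9% of all 14212 genes tested. Against CTL hypothalamus, 24 were higher and 9 lower in CTL muscle, beside 25.8% and 37.2% of all genes. In CTL hypothalamus 17 were higher and 9 lower than in CTL liver, beside 39.3% and 29.1% of all genes. The median over all genes was -0.28 on the log2 scale for muscle against hypothalamus, 0.25 for hypothalamus against liver and 0.02 for muscle against liver. Both CTL liver libraries that went against their labelled sex were in these fits, and without them the counts were 24 and 9, 24 and 9, and 17 and 9.

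**Figure D2:**
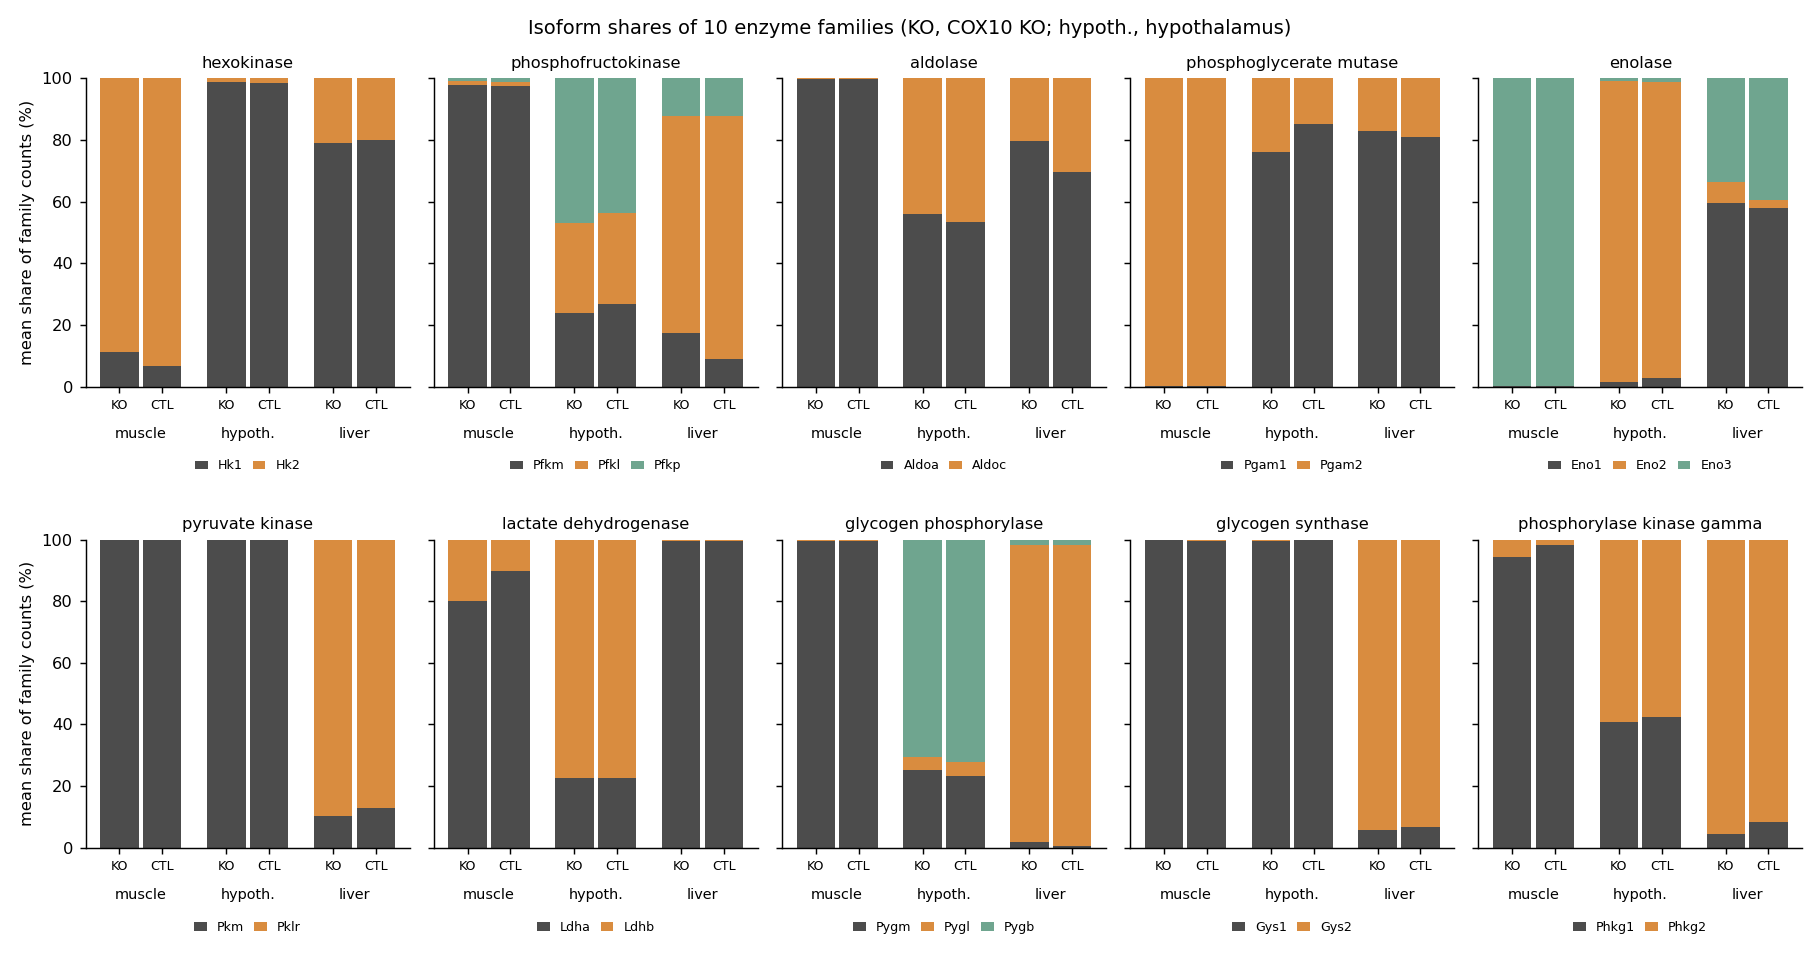
Shares of the counts of each isoform family taken by each isoform in muscle, hypothalamus and liver, in percent, as the mean over the libraries of a group, COX10 KO left of CTL. Phosphofructokinase, enolase and glycogen phosphorylase are led by a different isoform in each tissue, and the mean Ldhb share is 19.8% in COX10 KO muscle, against 10.2% in CTL muscle.

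The upper steps of glycolysis used Hk2 and Pfkm in muscle, Hk1 and Pfkp in hypothalamus, and Pfkl in liver. Hk2 took 85.5% to 97.4% of the counts of Hk1 and Hk2 in CTL muscle, whereas Hk1, the hexokinase of brain and most tissues, took 98% to 99.1% in CTL hypothalamus, where it was at 178, 244, 252 and 190.3 CPM in the 4 libraries. In CTL liver Hk1 was at 3.17, 5.08 and 15.7 CPM and Hk2 at 0.244, 0.678 and 8.50 CPM, so both were low. Hk1 was lower in CTL muscle than in CTL hypothalamus by log2 -3.29 (SE 0.35), and Hk2 higher by 7.13 (SE 0.87). Pfkm took 94.5% to 98.8% of the phosphofructokinase counts in CTL muscle. In CTL hypothalamus the 3 isoforms were mixed, with medians of 44.1% Pfkp, 31.1% Pfkl and 26.6% Pfkm, and Pfkp was at 134, 159, 148 and 117 CPM. In CTL liver Pfkl, the liver isoform, led with 64.8% to 87.0%, at 19.6, 25.7 and 32.4 CPM.

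The lower steps differed between the tissues too. Aldoa took 99.0% or more of the counts of Aldoa and Aldoc in each CTL muscle library. In CTL hypothalamus Aldoa (823, 1082, 1077 and 671 CPM) and Aldoc, the brain aldolase (616, 846, 947 and 751 CPM), were near each other. In CTL liver Aldoa was at 41.9, 57.0 and 70.3 CPM and Aldoc at 10.2, 25.8 and 32.1 CPM. Pgam2 was higher in CTL muscle than in CTL liver by log2 12.14 (SE 0.66) and than in CTL hypothalamus by 10.51 (SE 0.71), the largest fitted difference among the 36 genes in either comparison. Only 8 counts of Pgam2 were found over the CTL liver libraries and 57 over the CTL hypothalamus libraries, so the size and rank of these differences are uncertain. Pgam1, the brain and general isoform, was at 11.7, 11.3, 10 and 10.5 CPM in CTL hypothalamus and at 0.425, 2.39 and 6.38 CPM in CTL liver, with 131 counts over the 6 CTL liver libraries.

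Enolase and pyruvate kinase divided by tissue in the same way. Eno3 took 99.3% to 99.9% of the enolase counts in CTL muscle, and Eno2, the neuronal enolase, took 95.2% to 97.1% in CTL hypothalamus, at 557, 912, 963 and 648 CPM. Eno2 was higher in CTL hypothalamus than in CTL liver by log2 9.93 (SE 0.57). In CTL liver the enolases were low, with Eno1, the general isoform, at 3.97, 8.70 and 14.9 CPM and Eno3 at 4.04, 5.80 and 10.8 CPM. Pkm took 99.5% or more of the pyruvate kinase counts in each CTL muscle and CTL hypothalamus library, at 416, 638, 683 and 447 CPM in CTL hypothalamus. Pklr, the liver pyruvate kinase, took 67.7% to 97.7% in CTL liver, at 39.4, 96.0 and 169 CPM, and was lower in CTL hypothalamus than in CTL liver by log2 -10.56 (SE 0.77) and lower in CTL muscle by -9.26 (SE 0.69). Only 3 counts of Pklr were found over the CTL muscle libraries and 3 over the CTL hypothalamus libraries, so these fitted differences are not bounds.

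Lactate dehydrogenase was mostly Ldha in muscle and liver and Ldhb in hypothalamus. Ldha took 76.7% to 96.9% of the counts in CTL muscle and 99.1% or more in CTL liver, where it was at 215, 349 and 524 CPM. Ldhb took 74.4% to 79.3% in CTL hypothalamus, at 188, 242, 269 and 234 CPM. Ldhb did not differ by the test between CTL muscle and CTL hypothalamus (log2 0.24, SE 0.47, edgeR adjusted p = 0.681), so the levels of these tissues could not be ordered beyond the spread of the CTL muscle libraries. Gpd1 was higher in CTL muscle than in CTL hypothalamus (log2 4.66, SE 0.33), and between CTL muscle and CTL liver the difference was 0.57 (SE 0.24, edgeR adjusted p = 0.0485).

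The glycogen enzymes also had isoforms that led in 1 or more tissues. Pygm took 97.9% or more of the phosphorylase counts in each CTL muscle library, Pygl 93.3% to 99.4% in CTL liver, at 176, 457 and 513 CPM, and Pygb 70.6% to 73.8% in CTL hypothalamus, at 132, 149.5, 143 and 109 CPM. In CTL hypothalamus Pygm still took 21.7% to 25.0%, at 42.0, 48.9, 50.8 and 32.1 CPM. Gys1 made up nearly all synthase counts in CTL muscle and CTL hypothalamus (33.1, 37.5, 36.6 and 32.6 CPM in CTL hypothalamus), and Gys2 took 86.2% to 99.3% in CTL liver, at 40.9, 69.7 and 414 CPM. Phkg1 took 97.5% to 99.2% of the catalytic subunit counts of phosphorylase kinase in CTL muscle, and Phkg2 73.3% to 100% in CTL liver, at 5.61, 7.82 and 10.5 CPM. In CTL hypothalamus both were present, with Phkg2 at 24.6, 28.6, 27.8 and 13.4 CPM and Phkg1 between 13.4 and 25.3 CPM.

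Among the glycogen genes without a family here, Gbe1 and Stbd1 were lower in CTL muscle than in CTL liver. Gbe1 was at 80.2, 116 and 157 CPM in CTL muscle, against 105, 215 and 262 CPM in CTL liver (log2 -0.85, SE 0.25, edgeR adjusted p = 0.00605), and at 35.2, 32, 39.4 and 34.8 CPM in CTL hypothalamus. For Stbd1 the difference was of the same sign (log2 -1.28, SE 0.48, edgeR adjusted p = 0.0309), with 6.12, 32.3 and 93.8 CPM in CTL liver, and was at 0.376, 0.427, 1.14 and 0.243 CPM in CTL hypothalamus. In COX10 KO muscle Gbe1 had a median of 345 CPM and Stbd1 of 96.6 CPM, each above the CTL liver median, on the scale of each tissue and with no test between those groups. Ugp2 and Gyg were higher in CTL muscle than in CTL liver, by log2 1.19 (SE 0.26) and 5.95 (SE 0.37).

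In liver none of the 28 tested genes was called by edgeR, beside 0.0206% of all 9707 genes called higher and 0.0721% called lower. By DESeq2 0 were called as well. Both fits used the labelled sex, which sex-linked transcripts contradicted in 2 CTL livers, so the SE and p-values for liver rest on an uncertain label. No gene had COX10 KO and CTL livers that did not overlap, beside 0.196% of all genes with every COX10 KO library above and 0.247% with every one below. Only Pygm, Pfkm and Aldoa had an unadjusted p under 0.05. Pygm was at 2.56, 5.97 and 29.1 CPM in COX10 KO liver, against 0.846, 1.83 and 4.67 CPM in CTL liver (log2 1.95, SE 0.51, edgeR adjusted p = 0.306). The highest value was that of COX10 KO liver 6, the library with the largest sum of fast-fibre transcripts, and without COX10 KO liver 4 and 6 the log2 change was 1.35 (adjusted p = 0.662). Pfkm was at 4.26, 7.33 and 11.6 CPM in COX10 KO liver, against 1.45, 3.12 and 4.69 CPM in CTL liver (log2 1.28, SE 0.38, edgeR adjusted p = 0.495), and the change was 0.95 without the same libraries. Aldoa was at 49.1, 93.5 and 203 CPM in COX10 KO liver, against 41.9, 57.0 and 70.3 CPM in CTL liver (log2 0.84, SE 0.33, edgeR adjusted p = 0.875), and 1.01 without them. The part of muscle transcripts in these values was otherwise not tested.

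The liver isoforms overlapped between the genotypes. Pygl was at 273, 386 and 669 CPM in COX10 KO liver, against 176, 457 and 513 CPM in CTL liver (log2 0.04, SE 0.33). Gys2 was at 59.3, 99.7 and 253 CPM in COX10 KO liver, against 40.9, 69.7 and 414 CPM in CTL liver (log2 0.24, SE 0.50). Pklr was at 50.3, 78.4 and 205 CPM in COX10 KO liver, against 39.4, 96.0 and 169 CPM in CTL liver (log2 -0.11, SE 0.36). The SE of these isoforms were 0.33 to 0.50. In the same fit Pygm, Pfkm and Aldoa had changes well above their SE and were not called. Changes of these isoforms above their SE could thus also have gone without a call at this depth and spread. Gbe1, which rose in muscle, was at 113, 199 and 322 CPM in COX10 KO liver, against 105, 215 and 262 CPM in CTL liver (log2 0.06, SE 0.23). Ldha was at 220.3, 465 and 997 CPM in COX10 KO liver, against 215, 349 and 524 CPM in CTL liver (log2 0.57, SE 0.38). Pfkl was at 21.3, 27.1 and 70.4 CPM in COX10 KO liver, against 19.6, 25.7 and 32.4 CPM in CTL liver (log2 0.30, SE 0.30). For Ldha 3 of 6 COX10 KO livers, and for Pfkl 1 of 6, were above every CTL liver, and the rest overlapped. Hk2, Pgam1, Pgam2, Eno2, Ldhb, Phkg1, Gyg and Fbp2 had too few counts in liver to be tested. Of the 39 other pathway genes 22 were tested in liver and 0 were called, with 1 at an unadjusted p under 0.05.

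In hypothalamus none of the 30 tested genes was called by edgeR or DESeq2, beside 0.0% of all 13504 genes called higher and 0.0% called lower. The unadjusted p was under 0.05 for 1 gene, Eno1, which was at 14.5, 15.3, 12 and 13.4 CPM in the 4 COX10 KO libraries, against 22, 17.9, 17.3 and 23.9 CPM in the 4 CTL libraries. Its groups did not overlap, as for 0.733% of all genes with every COX10 KO library below and 0.674% with every one above, and the log2 change was -0.56 (SE 0.20, edgeR adjusted p = 1.00). The brain isoforms overlapped between the genotypes. Eno2 was at 589, 868, 1147 and 1077 CPM in COX10 KO hypothalamus, against 557, 912, 963 and 648 CPM in CTL hypothalamus (log2 0.26, SE 0.26). Aldoc was at 577, 869, 838 and 956 CPM, against 616, 846, 947 and 751 CPM in CTL (log2 0.04, SE 0.22). Pygb was at 117, 179.9, 142 and 159.6 CPM, against 132, 149.5, 143 and 109 CPM in CTL (log2 0.17, SE 0.19). In each of these 3 genes the COX10 KO and CTL libraries numbered 1 were low, below those numbered 2 and 3 of the same genotype. The libraries numbered 4 did not go together. For Eno2, Aldoc and Pygb, COX10 KO 4 was at 1077, 956 and 159.6 CPM, whereas CTL 4 was at 648, 751 and 109 CPM. The SE and p-values given for hypothalamus come from a fit that leaves out the library number. Aldoa was at 762, 1073, 1182 and 1071 CPM in COX10 KO hypothalamus, against 823, 1082, 1077 and 671 CPM in CTL hypothalamus (log2 0.16, SE 0.22). Pkm was at 419, 667, 788 and 769 CPM, against 416, 638, 683 and 447 CPM in CTL (log2 0.28, SE 0.25). Hk1, Pfkp and Ldhb, the other leading isoforms, had fitted log2 changes of 0.24, 0.24 and 0.05, with SE between 0.17 and 0.20. Gys1, whose median was 29.9 CPM in COX10 KO hypothalamus, against 34.9 CPM in CTL hypothalamus, had a log2 change of -0.27 (SE 0.19). Gbe1 was at 36.4, 39.1, 33.1 and 35.7 CPM in COX10 KO hypothalamus, against 35.2, 32, 39.4 and 34.8 CPM in CTL hypothalamus (log2 0.03, SE 0.16). Pgam2, Pklr, Gys2, Pfkfb1, Fbp2 and Stbd1 had too few counts in hypothalamus to be tested. Of the 39 other pathway genes 26 were tested and 0 were called, and 0 had an unadjusted p under 0.05.

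**Figure D3:**
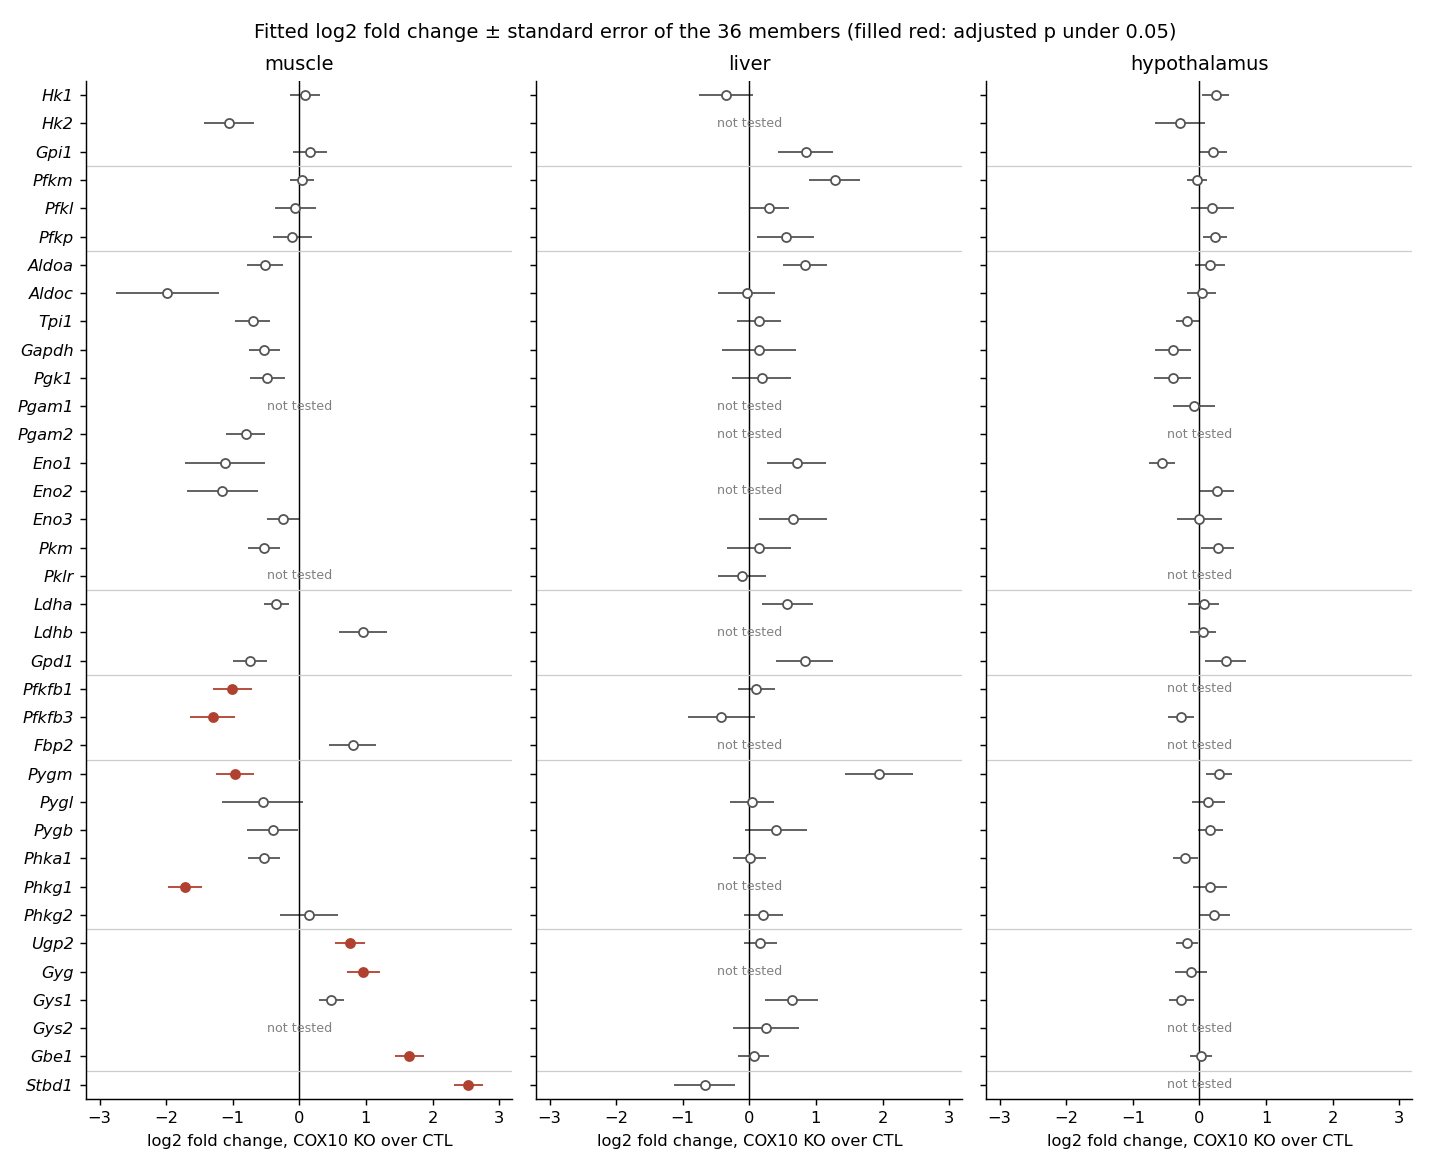
Fitted log2 fold change of COX10 KO over CTL for each tested gene in muscle, liver and hypothalamus, with its standard error as a bar, ordered by role, filled points for genes called by edgeR. In muscle the glycogen synthesis genes and Stbd1 lie to the right of 0 and the genes from aldolase to pyruvate kinase to the left, and in liver and hypothalamus no point is filled.

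The effect of genotype was also compared between tissues in a joint fit of all 32 libraries. Between muscle and liver it differed for 3 of the 36 genes, 2 higher beside 1.64% of all 15154 genes and 1 lower beside 1.19%. The genotype effect was higher in muscle than in liver for Stbd1 (difference of log2 changes 3.28, SE 0.51, edgeR adjusted p = 0.000238) and Gbe1 (1.66, SE 0.29, adjusted p = 0.00106). Pygm fell in muscle relative to liver (-2.84, SE 0.58, adjusted p = 0.00468). The difference for Stbd1 joins a rise in muscle and a liver change of log2 -0.67 that was not called. The difference for Pygm joins a fall in muscle and a higher level in COX10 KO liver, and without COX10 KO liver 4 and 6 its adjusted p was 0.0259. Between muscle and hypothalamus the effect differed for 1 gene higher, beside 0.614% of all genes, and for 0 lower, beside 0.277%. That gene was Gbe1 (1.67, SE 0.33, edgeR adjusted p = 0.00588), and DESeq2 called Phkg1 lower in addition. Stbd1 had few counts in hypothalamus, 9 over the COX10 KO and 16 over the CTL libraries, and its difference was not called there (2.62, SE 0.90, edgeR adjusted p = 0.197). The tissue comparisons share the muscle libraries and are not independent of each other.

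**Figure D4:**
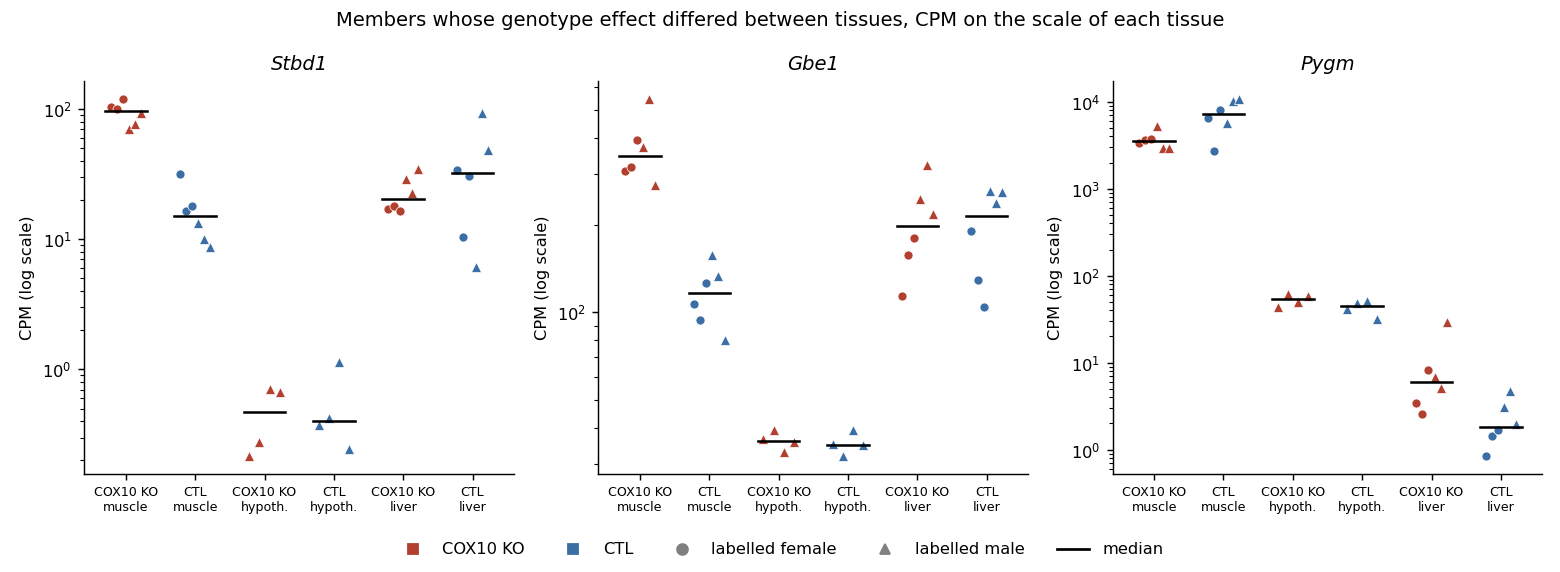
Levels of Stbd1, Gbe1 and Pygm in the 32 libraries of muscle, hypothalamus and liver, COX10 KO left of CTL in each tissue, in CPM on log axes and on the scale of each tissue, 1 point per library with the group median as a bar. For Stbd1 and Gbe1 the COX10 KO and CTL points separate in muscle and overlap in hypothalamus and liver, and for Pygm COX10 KO liver 6 stands at 29.1 CPM above the other liver libraries.

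The counting limits some of these levels. Gapdh, the glyceraldehyde phosphate dehydrogenase of glycolysis, has 89 other genes with a near-identical 3′ end, 83 of them pseudogenes, and stood at only 211 to 423 CPM in COX10 KO muscle and 306 to 671 CPM in CTL muscle. Eno1 and Ldha have 5 such genes each, and reads shared between copies may have been dropped, so their levels and their shares of the isoform families are uncertain. Exons of Phkg1, Phkg2, Gys1, Pfkfb1, Pfkp and Pklr overlap those of Sumf2, Ccdc189, Ruvbl2, Apex2, Pitrm1 and Hcn3 on the other strand, those of Hk1, Gpi1, Gpd1 and Ugp2 overlap antisense or predicted genes and those of Pfkm, Aldoa, Tpi1 and Gapdh overlap a neighbour by 18 to 68 bases, and whether the counting used strand is not given in the sources used here. Pfkm and Pkm overlap a predicted gene on their own strand. The remaining genes, Pgk1 among them, were low or intermediate in all tissues, with Pgk1, phosphoglycerate kinase, at 4.96 to 12.2 CPM in COX10 KO muscle, against 6.38 to 18.5 CPM in CTL muscle, and Tpi1, triose phosphate isomerase, at 195 to 367 CPM, against 229 to 727 CPM in CTL muscle.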

How the data were processed

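Single-end 86-base reads of 3′ libraries (Lexogen QuantSeq FWD, Illumina NextSeq500) were processed by the authors with BBDuk for trimming, STAR 2.5.0a for alignment (GRCm38.p6) and HTSeq 0.6.1 for counting, and raw counts per gene were deposited. Of 55401 identifiers 55141 were matched to a symbol. No 2 libraries were identical.

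The 36 genes, the 39 other pathway genes and the marker lists were chosen with earlier results of these data known. Counts were fitted over all genes in edgeR 4.0.16 (R 4.3.3) with TMM factors, filterByExpr and the quasi-likelihood F test, with a term for labelled sex where both sexes were present, and p-values were adjusted by Benjamini-Hochberg over all genes tested. Genotype effects were compared between tissues by an interaction in 1 fit of all libraries. Standard errors were taken from the F statistic. Libraries in the text are named by group and label number. All genes of the list were accounted for, with values for those called and for the leading isoform of each family. Some results for the other pathway genes are not reported here. P-values weigh a difference between groups against the spread between libraries.

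The pipeline was tested on simulated counts. Alternatives were DESeq2 1.42.0, other scaling factors, other filters, thinned libraries, no sex term, each sex alone, the replicate number as a block and each library left out. Leaving out COX10 KO liver 4 and 6 was added after seeing the data. Libraries with the same number correlated above 0.1 in 4 of 4 pairs of hypothalamus (0.204 to 0.805), which was taken as a pairing found in the data and stated by no label. Pairs of different number there ran from -0.633 to 0.469, and 3 of the 4 COX10 KO libraries correlated best with their own number. In muscle and in liver, libraries with the same number correlated above 0.1 in 2 of 6 pairs, which was not taken as a pairing. The SE and p-values given for hypothalamus come from the fit without this pairing. The block by replicate number was an alternative there and called none of the listed genes. Near-identical copies were searched over the last 300 bases at 95% identity. Promoter windows are from RefSeq on GRCm38.p6. Python 3.11.15 was used for the descriptions.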

Additional observations from a re-analysis of the deposited data

Results flagged for a closer look

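Pygm stood at 5216 CPM in COX10 KO muscle 4, far from the other 5 COX10 KO muscle libraries at 2918 to 3773 CPM by Dixon's test, which chance alone passes in about 1 in 20 groups. The genotype effect differed between muscle and liver by a test of the interaction for Stbd1 (3.28 on the log2 scale), Gbe1 (1.66) and Pygm (-2.84), and between muscle and hypothalamus for Gbe1 (1.67).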

How the results depend on the processing

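Of the 8 genes called in muscle, Stbd1, Gbe1 and Phkg1 kept their call in every alternative that tested them (21, 22 and 22). Gyg and Pfkfb3 lost it in 3 of 22, Ugp2 and Pfkfb1 in 10 and Pygm in 12, with adjusted p up to 0.203, 0.201, 0.230, 0.317 and 0.371; leaving out 1 library accounts for 1, 1, 7, 7 and 9 of these. Against 4 genes called lower in muscle, DESeq2 called 7, the fit with no filter 8, females alone 1 and males alone 1, and leaving out 1 library gave 1 (without COX10 KO muscle 2) to 7 (without CTL muscle 2), with 2 without COX10 KO muscle 1 or 5 or CTL muscle 3, 5 or 6. Against 4 called higher, males alone gave 2, and leaving out 1 library gave 2 (without CTL muscle 6) to 5. With the replicate number as a block 3 were higher and 3 lower in muscle, where Ugp2 (adjusted p = 0.0724) and Pygm (0.107) lost their calls and the numbers do not pair the libraries, and 0 were called in liver and hypothalamus. In liver the fit with no filter called 1 gene higher, Pygm. For muscle minus liver, against 1 gene lower, DESeq2 called 5, and 2 were called with relative log expression factors and without CTL liver 1 and 4, and 1 to 2 on leaving out 1 library. For muscle minus hypothalamus, DESeq2, the fit of these 2 tissues alone and the fit without CTL liver 1 and 4 called 1 gene lower, against 0, and the fit of these 2 tissues alone called 2 higher, against 1. The interactions of Stbd1, Gbe1 and Pygm were called in every alternative run, and no direction reversed. The counts over all genes in the alternatives are not given beside these counts, so the moved counts are not read as particular to the listed genes. The cause of the moved counts was not tested. Depth limits Stbd1 in hypothalamus and Pgam1 and Pgam2 in liver.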
